A study of Mus musculus with 30 samples.

Results

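KIT-enriched and THY1-enriched cells of the testis of C57BL/6 mice were compared at postnatal day 12 (P12). The comparison was defined by the P12 KIT and P12 THY1 columns of the deposited expression table, which are 2 of its 11 columns. Behind them stand 4 of the 16 RNA libraries, and of the 30 samples of the series, with 2 libraries labelled P12 KIT and 2 labelled P12 THY1. The table gives 1 value per gene for each pair of libraries, so no difference below has a replicate check and no test between the groups was possible. Every value describes these libraries alone.

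Both groups were labelled spermatogonia and were taken with magnetic beads, using antibodies to CD117 (KIT) or CD90.2 (THY1). No transgene, deletion or treatment is named for these mice, and the labels do not say whether the libraries came from separate animals or pools. The same contrast was available at P7, with 2 libraries in each group, and at P14, with 1 library in each group. Those columns share no library with the P12 columns. The P7 ID4-GFP column, 1 library of cells sorted by fluorescence for a reporter of the stem cell factor ID4, served as a view of sorted germ cells. Levels are in FPKM, sequenced fragments corrected for transcript length and library size. A difference is KIT minus THY1 on the log2(FPKM + 1) scale, which makes the change of weakly expressed genes look smaller.

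Spermatogonia that self-renew respond to GDNF and FGF from the somatic niche. Retinoic acid moves their progeny into the differentiating, KIT-positive state, whose survival needs the KIT receptor, and later into meiosis through the STRA8 and MEIOSIN pathway. In meiotic prophase SPO11 breaks the DNA at sites marked by PRDM9, recombinases such as DMC1 repair the breaks, and the synaptonemal complex holds the paired chromosomes together. In the first wave of spermatogenesis these steps follow each other during the second week after birth.

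Of 20889 genes in the table, 10106 (48.4%) reached 5 FPKM in at least 1 of the P12 columns, and all counts below are over these genes. Their median difference was 0.02, with quartiles at -0.38 and 0.37, and 88.8% lay within 2-fold. At 4-fold or more, 29 genes were higher in KIT cells (0.287% of those compared) and 21 were lower (0.208%). At 2-fold or more, 471 genes were higher (4.66%) and 658 were lower (6.51%). Higher genes made up 41.7% of the genes 2-fold apart. When the differences were centred on the median of 12 pan-germ cell genes (0.27), the median of all genes moved to -0.25 and that share became 14.9%. The share of higher genes among those 4-fold apart went from 58.0% to 16.0% with the same centring. Directions below are on the deposited scale, so the sign of a difference within about that shift of 0 depends on the centring. The shares of 4.66% higher and 6.51% lower are the background for the 2-fold counts of the lists below. A gene could reach 5 FPKM in 1 column alone, the column where it is high.

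**Figure D1:**
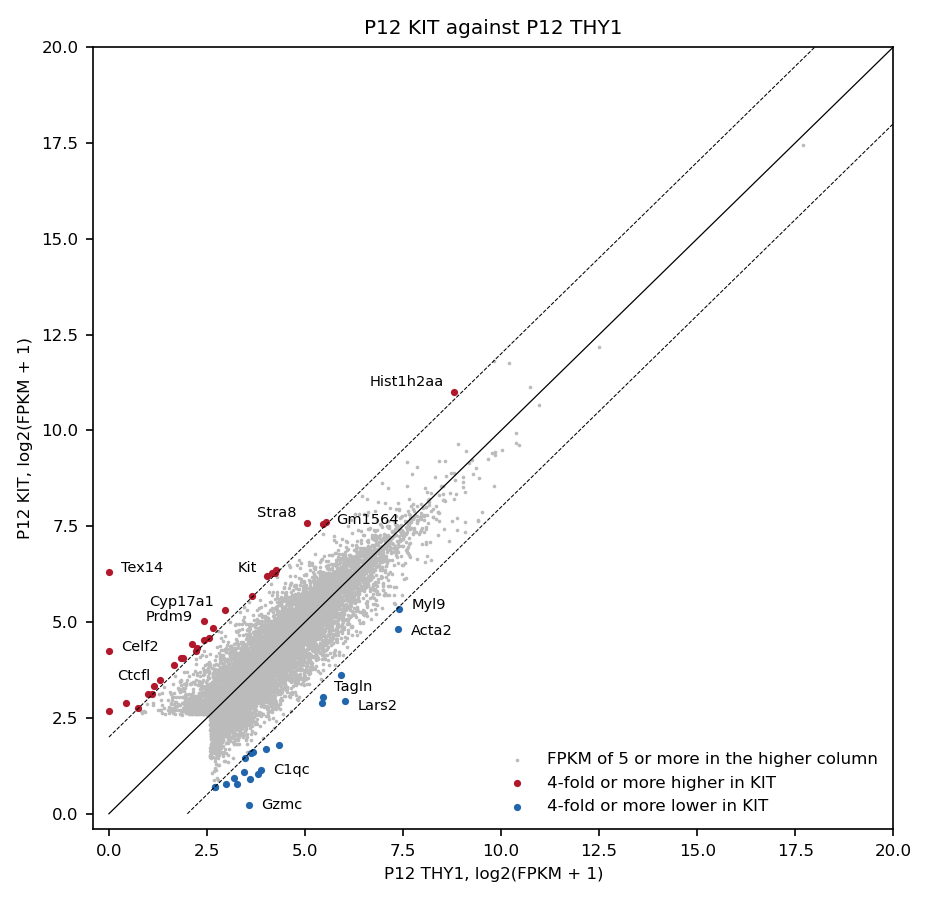
Level of each gene in P12 KIT (vertical) against P12 THY1 (horizontal), both as log2(FPKM + 1), for the 10106 genes that reached 5 FPKM in either. Dashed lines mark 4-fold, red points the 29 genes higher and blue points the 21 genes lower in KIT; 3 red points sit at 0 on the horizontal axis.

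Kit, the receptor used for the selection, stood at 72.5 FPKM in P12 KIT and 15.4 FPKM in P12 THY1, a difference of 2.16. Thy1 was low in both columns, at 0.386 FPKM in KIT cells and 1.17 FPKM in THY1, under the level at which genes were counted. Germ cell transcripts were abundant in both columns. Ddx4, the VASA helicase of germ cells, stood at 149.6 FPKM in KIT cells and 113 FPKM in THY1, a difference of 0.40. Dazl, an RNA-binding protein of germ cells, stood at 805 and 475 FPKM (0.76). Dnd1, which partners NANOS proteins, was the pan-germ cell gene with the most negative difference, at 16.8 and 29.4 FPKM (-0.78). RNA from somatic cells was present beside them in both groups, as given further below. In bulk RNA, fewer cells of a type and less RNA per cell cannot be told apart.

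Promoter sequences of 4 germ cell genes with large differences are shown first. The 4 genes have the largest differences, among members with an entry in the RefSeq promoter table (GRCm38.p6), of the lists of differentiating, meiotic entry, break formation, recombinase and CTCF genes. Each line gives 250 bases up to the most upstream annotated start, 5′ to 3′ on the strand of the gene, with matches to the motifs searched in capitals. The expression values were made on mm9, another build, so these coordinates belong to the promoters only.
Prdm9, chr17:15564355-15564604, minus strand: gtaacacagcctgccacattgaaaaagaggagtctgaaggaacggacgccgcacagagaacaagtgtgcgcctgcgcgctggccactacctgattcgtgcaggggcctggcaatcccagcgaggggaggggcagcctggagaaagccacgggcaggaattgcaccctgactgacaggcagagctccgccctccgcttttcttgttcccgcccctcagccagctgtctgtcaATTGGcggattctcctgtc
Stra8, chr6:34920698-34920947, plus strand: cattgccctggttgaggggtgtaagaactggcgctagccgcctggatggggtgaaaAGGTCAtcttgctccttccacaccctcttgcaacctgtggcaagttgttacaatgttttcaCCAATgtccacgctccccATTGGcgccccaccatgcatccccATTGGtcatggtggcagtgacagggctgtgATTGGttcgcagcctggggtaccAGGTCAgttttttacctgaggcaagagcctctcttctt
Esx1, chrX:137120327-137120576, minus strand: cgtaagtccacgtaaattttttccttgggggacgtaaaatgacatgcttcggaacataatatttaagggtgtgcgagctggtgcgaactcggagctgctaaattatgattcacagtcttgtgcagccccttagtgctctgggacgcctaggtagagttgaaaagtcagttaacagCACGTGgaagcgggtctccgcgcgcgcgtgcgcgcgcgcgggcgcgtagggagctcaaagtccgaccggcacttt
Kit, chr5:75574737-75574986, plus strand: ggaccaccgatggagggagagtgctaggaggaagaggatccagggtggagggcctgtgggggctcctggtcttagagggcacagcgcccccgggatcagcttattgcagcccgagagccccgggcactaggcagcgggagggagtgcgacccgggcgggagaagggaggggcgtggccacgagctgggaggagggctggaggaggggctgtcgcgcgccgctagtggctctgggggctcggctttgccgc

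The motifs searched on both strands were the E-box CACGTG, the E2F site TTTCCCGC, the CCAAT box, the CRE site TGACGTCA, the nuclear receptor element AGGTCA and the TATA box in the form TATAAA. On the other strand CCAAT reads ATTGG, and none of the matches shown overlap. The Stra8 window held AGGTCA at 194 and 38 bases before the start, and CCAAT in 1 or the other orientation at 133, 115, 91 and 61 bases before it. The Prdm9 window held 1 CCAAT in reverse orientation at 19 bases before the start. In the Esx1 window the only match was CACGTG at 75 bases before the start, and the Kit window held none of the 6 motifs. A match describes letters in this window and says nothing of binding.

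Across the groups of genes, the E2F motif TTTCCCGC was in 22 of 395 promoters (5.57%) of genes 2-fold higher in KIT cells. It was in 2 of 506 promoters (0.395%) of genes 2-fold lower, in 2.04% of the 8136 promoters of genes compared and in 0.929% of all 27025 promoters in the table. The E-box CACGTG was in 10 of 34 promoters (29.4%) of the meiotic genes described next. That motif was in 9.34% of promoters of genes compared and in 6.04% of all promoters. Among genes 2-fold higher its share was 7.59%, and among genes 2-fold lower 5.93%. Meiotic genes with it included Sycp1, Sycp3, Hormad1, Stag3 and Rbm46. CCAAT was in 42.5% of promoters of genes 2-fold higher and 33.2% of those lower, against 37.5% of those compared and 34.5% of all. The share with AGGTCA was 7.59% among genes 2-fold higher and 12.3% among genes lower, against 9.64% of those compared and 13.8% of all. TATAAA was in 25 of 395 (6.33%) and 58 of 506, against 5.97% and 13.0%. TGACGTCA was in 2.53% and 1.98%, against 3.02% of those compared. The median promoter of a 2-fold higher gene held 18 CG dinucleotides and that of a 2-fold lower gene held 10, against 17 over the genes compared.

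Genes of meiosis were higher in KIT cells in every step that was listed. Of 41 meiotic genes in the table, all 41 passed the filter on low values, 28 were 2-fold or more higher and 0 were 2-fold lower, beside 4.66% and 6.51% of all genes compared. Their median difference was 1.17, beside 0.02 over all genes compared. The genes come from lists of meiotic entry, break formation, synaptonemal complex and recombination, with the meiotic cohesins Smc1b and Stag3.

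At meiotic entry, Stra8, the retinoic acid target that starts the meiotic programme, stood at 191.6 FPKM in P12 KIT and 32.0 FPKM in P12 THY1. Its difference of 2.54 was the second largest among higher genes not listed at 0. Gm1564 (Meioc), which keeps meiotic transcripts stable, stood at 193.6 and 45.4 FPKM (2.07). Its partner Ythdc2, an RNA helicase, stood at 47.8 and 22.1 FPKM (1.08). Rec8, the kleisin of meiotic cohesin, and Rbm46, an RNA-binding protein needed for meiotic entry, were higher by 1.05 and 1.06. Zglp1, a GATA-like factor of oogenic fate, was the member with the smallest difference, at 0.29. In all, 5 of 6 members were 2-fold higher.

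In break formation, 6 of 8 members were 2-fold higher, with a median difference of 1.30. Prdm9, the histone methyltransferase that places the breaks, had the largest difference of the list, at 31.5 FPKM in KIT cells and 4.33 FPKM in THY1 (2.61). Mei1, needed for break formation, stood at 22.3 and 4.32 FPKM (2.13). Ccdc36 (Iho1), an axis protein that recruits the break machinery, stood at 41.0 and 9.89 FPKM (1.95). The axis proteins Hormad1 and Hormad2 were higher by 1.11 and 1.29, and Zcwpw1, a reader of the PRDM9 mark, by 1.32. Spo11, the break enzyme itself, was chosen for mention after its value was seen: it stood at 10.9 and 6.06 FPKM (0.75), under the 2-fold bound.

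The synaptonemal complex was higher in 7 of 8 members by 2-fold or more, with a median of 1.23 and a narrow range among those 7. Sycp2 stood at 224 and 76.1 FPKM (1.54) and Sycp3 at 523 and 229.5 FPKM (1.18), both lateral element proteins. The transverse filament Sycp1 stood at 238 and 109 FPKM (1.12). Central element genes followed, with Syce1 at 1.46, 4930447C04Rik at 1.30 and Syce2 at 1.28. Fkbp6, an immunophilin of meiosis, was the member without a 2-fold difference, at 198 and 187.5 FPKM (0.08), and was named after its value was seen.

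Among recombination and crossover genes, 8 of 17 were 2-fold higher and the median was 0.97. Dmc1, the meiosis-specific recombinase, stood at 85.1 and 23.4 FPKM (1.82). Tex15, which is needed for loading recombinases, stood at 396 and 123.5 FPKM (1.67). Msh5, a MutS homologue of crossover formation, stood at 21.7 and 6.499 FPKM. Brca2, Hfm1 and Brca1 were higher by 1.39, 1.28 and 1.22. The differences in this list ran from -0.16 to 1.82, wider than those of the synaptonemal complex at their lower end.

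Among cohesin subunits the meiotic subunits Stag3, at 201 and 70.6 FPKM, and Smc1b, at 226 and 82.2 FPKM (1.45), were the 2 of 7 members past 2-fold. Smc3, shared by mitotic and meiotic complexes, stood at 0.63, and the mitotic subunits Stag1, Stag2, Rad21 and Smc1a at 0.45, -0.25, -0.17 and -0.04, all but Stag1 within the shift made by centring. Later genes were mostly low. Of 25 late meiotic and spermatid genes in the table, 5 reached 5 FPKM at P12: Ybx2, a germ cell RNA-binding protein, was higher in KIT cells at 25.8 and 8.57 FPKM (1.48), and Meig1 was lower at 5.62 and 16.8 FPKM (-1.43). Of 11 PIWI and piRNA genes, 0 were 2-fold higher or lower, beside 4.66% and 6.51% of all genes compared. Mybl1, the regulator of pachytene piRNA loci, was highest at 0.98 and Tdrd5 lowest at -0.69.

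**Figure D2:**
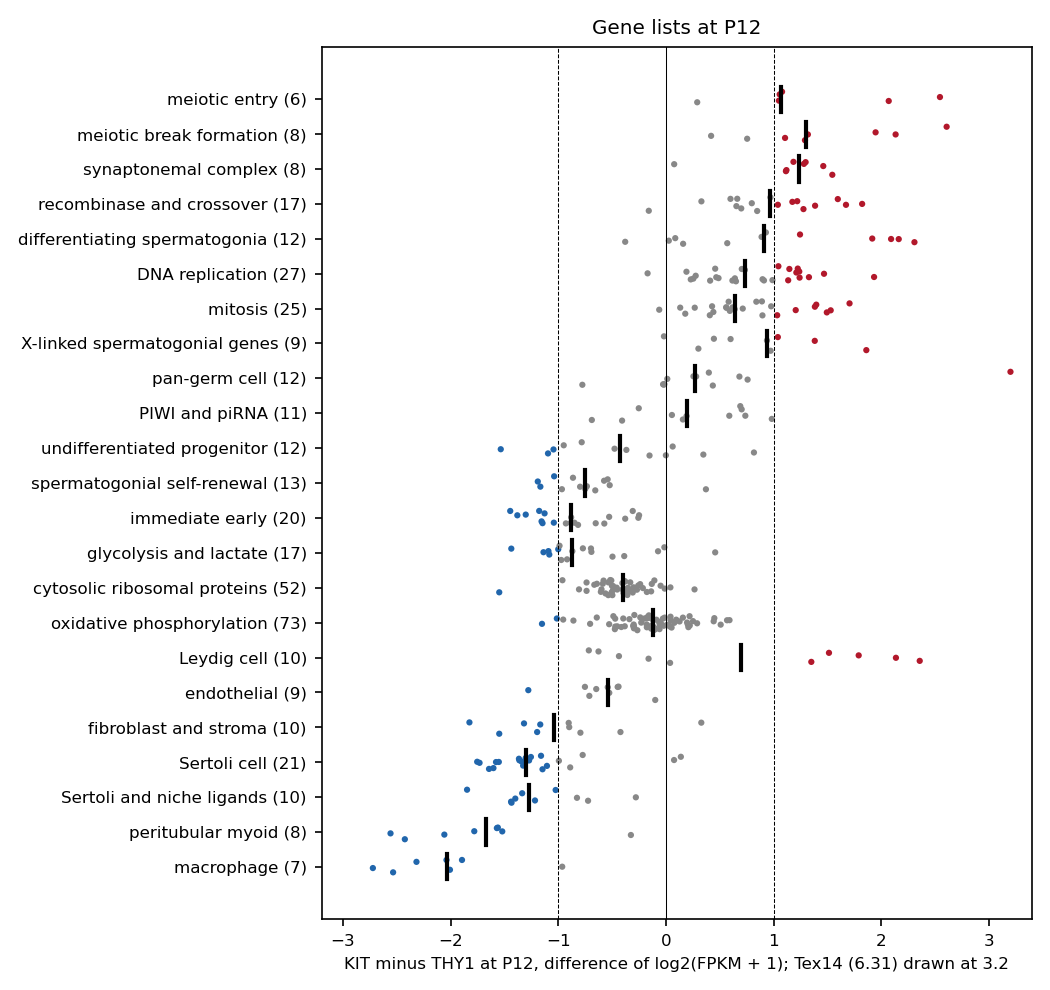
Difference between P12 KIT and P12 THY1 (horizontal, log2(FPKM + 1)) for members of 23 gene lists, 1 point per gene that reached 5 FPKM in either column, with the number of such genes after each name. Bars mark list medians and dashed lines 2-fold; the 4 meiotic lists at the top have medians from 0.97 to 1.30 and macrophage markers at the bottom -2.04.

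In the list of differentiating spermatogonia 5 of 12 members were 2-fold higher, beside 4.66% of all genes compared, and the median was 0.91. Kit (2.16) is among the 5, but as the receptor used for the selection it adds no separate evidence. Esx1, an X-linked homeobox gene, stood at 20.5 FPKM in KIT cells and 3.35 FPKM in THY1 (2.31). Prss50, a protease gene of the testis, stood at 80.4 and 18.1 FPKM (2.09). Rhox13, a homeobox gene of the X-linked RHOX cluster, stood at 37.5 and 9.20 FPKM (1.92), and Dmrtb1, a factor at the switch from mitosis to meiosis, at 5.84 and 1.89 FPKM (1.24). The other members were under 2-fold in either direction, although the list median of 0.91 lay close to that bound. Among them, the transcription factors Sohlh1, Sohlh2 and Dmrt1, named after their values were seen, stood at 0.09, 0.57 and 0.16.

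Self-renewal genes were lower in KIT cells in 12 of the 13 members that passed the filter, of 18 in the table, with a median of -0.75. By 2-fold or more 3 were lower, beside 6.51% of all genes compared. The GDNF co-receptor Gfra1 stood at 12.3 and 23.2 FPKM (-0.86) and its signalling partner Ret at 11.3 and 24.2 FPKM (-1.04). Targets of GDNF and FGF signalling lay at like values, with Egr4 at -1.19, Dusp6 at -1.17 and Egr2 at -0.80. In the progenitor list 3 of 12 were 2-fold lower. Nanos3, a translational repressor, stood at 10.6 and 32.6 FPKM and had the largest difference of that list. Lin28a, a repressor of let-7, stood at 40.7 and 79.6 FPKM (-0.95), whereas Taf4b, a TFIID subunit of germ cells, stood at 82.9 and 46.6 FPKM (0.82). In all, 9 of the 12 progenitor genes had differences below 0 and 3 above.

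Retinoic acid genes had no common direction. Of 15 that passed the filter, Rbp4, a retinol carrier, and Crabp1, a cytosolic retinoic acid-binding protein, were 2-fold higher (1.43 and 1.22). Stra6, the retinol uptake receptor, was 2-fold lower (-1.13) and Rdh10, which oxidises retinol, stood at -0.90. Over all genes compared, 4.66% were 2-fold higher and 6.51% were 2-fold lower. The median of the list was -0.22.

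In the DNA replication list of the cell cycle genes, 10 of 27 members were 2-fold higher, beside 4.66% of all genes compared. Of the 27, 0 were 2-fold lower and the median was 0.73. Rrm2, the S phase subunit of ribonucleotide reductase, stood at 31.3 FPKM in KIT cells and 7.45 FPKM in THY1 (1.93). Chaf1a, a histone chaperone of replication, stood at 42.6 and 14.8 FPKM (1.47), and the helicase subunit Gins2 at 24.2 and 9.05 FPKM (1.33). Lig1, Cdc6 and Prim1 were higher by 1.24, 1.24 and 1.22. The mitosis list had 7 of 25 members 2-fold higher and a median of 0.64. Kif23, a kinesin of cytokinesis, stood at 89.2 and 26.7 FPKM (1.71), the centromere protein Cenpf at 109 and 37.2 FPKM (1.53), and Mki67, the proliferation antigen, at 150.5 and 52.8 FPKM (1.49). Top2a, Bub1 and Birc5 were higher by 1.38, 1.40 and 1.21.

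G1 regulators went both ways. Ccne2, the cyclin E2 that drives entry into S phase, stood at 77.1 and 17.96 FPKM (2.04), and Ccne1 at 19.3 and 7.70 FPKM (1.22). The CDK inhibitors Cdkn1a (p21), Cdkn1b (p27) and Cdkn2b (p15) were lower in KIT cells. Cdkn1a stood at 7.52 and 26.1 FPKM (-1.67), Cdkn1b at 6.34 and 19.5 FPKM (-1.48) and Cdkn2b at 4.14 and 11.3 FPKM (-1.25). Cdkn2c (p18) was an exception, at 14.4 and 6.55 FPKM (1.02). These are the 6 of 11 members of the list that were 2-fold apart. In the P7 ID4-GFP cells Cdkn1a stood at 2.16, Cdkn1b at 4.50 and Cdkn2b at 4.18 FPKM, below the THY1 column at P12.

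Histone transcripts made up some of the most abundant differences. Of 50 replication-type histone genes that passed the filter, 13 were 2-fold higher and 3 were 2-fold lower, beside 4.66% and 6.51% of all genes. Hist1h2aa and Hist1h2ba, the testis variants TH2A and TH2B, stood at 2057 and 443 FPKM (2.21) and at 3604 and 909 FPKM (1.99). Hist3h2ba stood at 186 and 43.2 FPKM (2.09), Hist3h2a at 309 and 86.7 FPKM (1.82), and Hist1h1a, a linker histone, at 3480 and 1186 FPKM (1.55). Near-identical histone genes can share reads, so single values are uncertain, and the libraries were made by removing ribosomal RNA, which keeps transcripts without a poly(A) tail.

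Of 12 genes of DNA methylation that passed the filter, 1 was 2-fold higher and 0 were 2-fold lower, near the shares of 4.66% and 6.51% over all genes compared. That gene was Hells, a remodeller needed for DNA methylation, at 274.5 FPKM in KIT cells and 129.5 FPKM in THY1 (1.08). Dnmt3b, a de novo methyltransferase, stood at 31.4 and 16.5 FPKM (0.89) and the maintenance enzyme Dnmt1 at 129 and 72.5 FPKM (0.82). Dnmt3a and the oxidase Tet2 had differences below 0, at -0.45 and -0.70. Ctcf, the insulator protein, stood at 37.6 and 23.4 FPKM (0.66), and its germ cell relative Ctcfl (BORIS) at 10.1 and 1.49 FPKM (2.16), 1 of the genes 4-fold higher. Of the imprinted genes, 0 of 13 with maternal expression and 2 of 14 with paternal expression were 2-fold apart. Those 2 were Peg10, at 17.6 and 39.7 FPKM (-1.13), and Mest, at 4.19 and 9.47 FPKM (-1.01). The shares over all genes compared are those given above for DNA methylation.

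On the X chromosome, 3 of 9 spermatogonial genes that passed the filter were 2-fold higher, beside 4.66% of all genes compared. The median of the 9 was 0.94. Magea4 stood at 5.36 and 0.750 FPKM (1.86), Tex16 at 64.1 and 24.0 FPKM (1.38) and Tex11, a crossover gene, at 117 and 56.6 FPKM (1.04). Of 30 RHOX genes in the table, 2 passed the filter, namely Rhox13 and Rhox10 (-0.21).

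Transcripts of somatic cells were lower in KIT cells for most cell types of the testis. Sertoli cells nurse the germ cells inside the tubule. Of 21 Sertoli markers that passed the filter, of 23 in the table, 16 were 2-fold lower, beside 6.51% of all genes compared. Of the 21, 0 were 2-fold higher and the median was -1.30. The 23 markers summed to 1584 FPKM in P12 KIT and 4386 FPKM in P12 THY1, and to 162 FPKM in P7 ID4-GFP. Cst12 stood at 202.5 and 685 FPKM (-1.75) and Cst9 at 162 and 542 FPKM (-1.73), both cystatin genes. Inha, the inhibin alpha subunit, stood at 40.2 and 124 FPKM (-1.603), and Sox9, the Sertoli cell determinant, at 9.41 and 25.8 FPKM (-1.37). Sertoli RNA was therefore measured in both bead preparations, with more in THY1.

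Ligands of the niche followed the same direction. Of 10 that passed the filter, 7 were 2-fold lower in KIT cells, beside 6.51% of all genes compared. The list median was -1.28, and became -0.79 with a pseudocount of 5 and -0.83 without the filter. Members such as Igf1 and Gdnf passed the filter only through their level in THY1 cells. Kitl, the ligand of KIT, stood at 30.4 and 83.9 FPKM (-1.44). Csf1, a growth factor of macrophages and spermatogonia, stood at 9.29 and 26.2 FPKM (-1.40), the chemokine Cxcl12 at 5.13 and 15.6 FPKM (-1.44) and Igf1 at 4.36 and 18.3 FPKM (-1.85). Gdnf, which sustains stem cells, stood at 3.68 and 7.30 FPKM (-0.83) and was named after its value was seen.

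Peritubular myoid cells, the contractile cells around the tubule, had 7 of 8 markers 2-fold lower, beside 6.51% of all genes compared. The median of the 8 was -1.68, and -1.24 with a pseudocount of 5. Actg2, Des and Tpm2 passed the filter only through their level in THY1 cells. Acta2, smooth muscle actin, stood at 27.2 and 165 FPKM (-2.56), Tagln at 7.24 and 43.3 FPKM (-2.43) and Myl9 at 39.6 and 168 FPKM (-2.06). The 10 markers summed to 109.7 FPKM in KIT cells and 466 FPKM in THY1. Fibroblast markers had 5 of 10 2-fold lower, led by Dcn, a matrix proteoglycan, at 43.0 and 155 FPKM (-1.83). Col1a1 stood at 22.1 and 42.1 FPKM (-0.90), and the 11 markers summed to 256 and 575 FPKM. Of 15 collagen chains that passed the filter, 7 were 2-fold lower and Col22a1 was 2-fold higher (1.34). Endothelial markers differed less, with 1 of 9 past 2-fold, Cldn5 (-1.28), and Pecam1 at 12.6 and 17.6 FPKM (-0.45); their sums were 78.2 and 120 FPKM.

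Macrophage genes had a median of -2.04 over the 7 of 15 that passed the filter, all 7 through their level in THY1 cells. With a pseudocount of 5 that median was -1.22. The complement genes C1qc, C1qa and C1qb, made by tissue macrophages, stood at 1.21 and 13.6 FPKM (-2.72), 2.00 and 11.3 FPKM (-2.04), and 1.74 and 10.03 FPKM (-2.01). Lyz2, a lysozyme, stood at 2.49 and 19.2 FPKM (-2.54) and Tyrobp, a myeloid adaptor, at 2.24 and 15.2 FPKM (-2.32). Csf1r, the receptor that defines the lineage, was at 0.604 FPKM in KIT cells and 4.83 FPKM in THY1, under the filter. The 15 markers summed to 20.2 and 108 FPKM. Of 5 antigen presentation genes, B2m was 2-fold lower (-1.23) and H2-K1 2-fold higher (1.06).

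Leydig cell genes were the exception among somatic lists. Of 10 that passed the filter, 5 were 2-fold higher in KIT cells, beside 4.66% of all genes compared. Of the 10, 0 were 2-fold lower and the median was 0.69. Cyp17a1, the androgen-forming lyase, stood at 38.7 FPKM in KIT cells and 6.75 FPKM in THY1 (2.36). Insl3, a Leydig cell hormone, stood at 77.1 and 16.8 FPKM (2.14), Hsd3b1 at 38.8 and 10.5 FPKM (1.79) and the cholesterol side-chain enzyme Cyp11a1 at 32.3 and 12.1 FPKM (1.35). Hsd3b6, a steroid dehydrogenase that can share reads with Hsd3b1, stood at 1.51. The list was not uniform, as Hsd17b3, which makes testosterone, stood at 3.94 and 7.12 FPKM (-0.72). Nr5a1, a regulator of steroid enzymes, Scarb1, a cholesterol receptor, and Fdx1, an electron carrier, were also below 0, at -0.63, -0.44 and -0.16. The 12 Leydig genes summed to 340 FPKM in KIT cells and 221 FPKM in THY1. In the P7 ID4-GFP cells Cyp17a1 was at 0.0101 FPKM and Insl3 at 0.0196 FPKM.

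Cpa3, Cd3e and Alas2, defining markers of mast cells, T cells and red blood cells, were under 5 FPKM in both columns. Mast cells carry KIT, and their genes other than Kit summed to 9.64 FPKM in KIT cells and 6.71 FPKM in THY1. Hdc, which makes histamine, was 4.98 of the 9.64 FPKM in KIT cells and 6.54 of the 6.71 FPKM in THY1. It stood at 3.94 FPKM in P7 ID4-GFP. Of 11 mast cell genes, Kit among them, 3 were listed at 0 in KIT cells and 5 in THY1. Cpa3 was at 0.590 FPKM in KIT cells and listed at 0 in THY1. T cells carry THY1 in the mouse, and 9 T cell genes, Thy1 among them, summed to 3.98 and 5.94 FPKM, with Cd3e at 1.61 and 0.533 FPKM. Genes of red blood cells summed to 1.98 and 3.85 FPKM, with Alas2 at 0.612 and 0.572 FPKM.

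The part of these cells in the gene differences was not tested, but the level of each gene in sorted ID4-GFP germ cells was set beside it. Of the 658 genes 2-fold lower in P12 KIT, 285 (43.3%) were under 1 FPKM in P7 ID4-GFP, with a median level of 1.63 FPKM. Of the 471 genes 2-fold higher, 32 (6.79%) were under 1 FPKM there, with a median of 12.0 FPKM. Over all genes compared the share was 5.67% and the median 18.4 FPKM. That column is 1 library at P7, so a low level there does not by itself mark a somatic gene. Prdm9, for example, stood at 0.901 FPKM in it and at 31.5 FPKM in P12 KIT. Among the genes 4-fold lower, 16 of 21 were under 1 FPKM in that column, and among those 4-fold higher 9 of 29. When only genes with FPKM of 5 or more in P7 ID4-GFP were kept, 347 genes were 2-fold higher and 194 were 2-fold lower. Higher genes then made up 64.1% of those 2-fold apart, since the filter kept 73.7% of the higher genes and 29.5% of the lower. The median of the 4 meiotic lists stayed between 0.91 and 1.30 among those genes, that of self-renewal genes was -0.75 and that of replication genes 0.73.

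**Figure D3:**
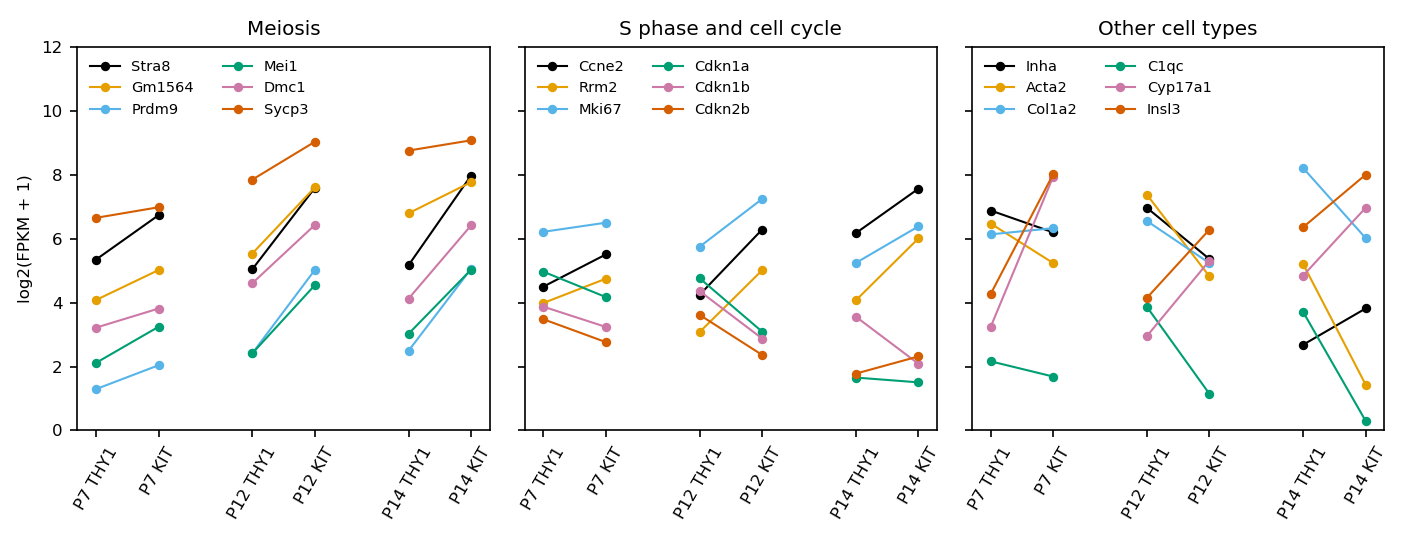
Level (vertical, log2(FPKM + 1)) of 18 genes in THY1 and KIT columns at P7, P12 and P14, 1 point per column, with a line joining the columns of 1 age. The 6 meiotic genes drawn stand higher in KIT at each age, Cdkn1a, Cdkn1b and Cdkn2b lower at P7 and P12, and the myoid and macrophage genes Acta2 and C1qc stand lower in KIT while Cyp17a1 and Insl3 stand higher.

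Immediate early genes respond within minutes to growth factors and stress. All 20 had differences below 0 and 8 of 20 were 2-fold lower, beside 6.51% of all genes compared. The median of the 20 was -0.88, beside 0.02 over all genes compared. Myc stood at 6.77 and 20.2 FPKM (-1.45), Cyr61 at 51.4 and 135.5 FPKM (-1.38), Ier3 at 51.4 and 128 FPKM (-1.30) and Atf3 at 27.4 and 62.3 FPKM (-1.16). In P7 ID4-GFP these genes were at 0.121 FPKM (Myc), 1.64 FPKM (Cyr61), 9.77 FPKM (Ier3) and 0.664 FPKM (Atf3). The other 4 that were 2-fold lower, Klf6, Junb, Socs3 and Btg2, were at 6.88, 12.1, 16.1 and 15.8 FPKM there. Heat shock genes had 3 of 10 2-fold lower, namely Hspa1a (-1.29), Hspb1 (-1.21) and Hspa1b (-1.14). Reads of Hspa1a and Hspa1b, near-identical genes, may not be told apart.

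Of 17 glycolysis and lactate genes that passed the filter, 5 were 2-fold lower in KIT cells and the median was -0.87. The lactate dehydrogenase Ldhb stood at 39.5 and 109 FPKM (-1.44) and Ldha at 20.2 and 45.6 FPKM (-1.14). The lactate exporter Slc16a3 and the glucose transporter Slc2a3 stood at -1.09 and -1.08. In P7 ID4-GFP, Ldhb, Ldha, Slc16a3 and Slc2a3 were at 8.32, 8.49, 2.09 and 6.69 FPKM. The list as a whole was not low there: its 20 genes summed to 1061 FPKM, beside 887 FPKM in P12 THY1 and 530.5 FPKM in P12 KIT. Cytosolic ribosomal protein genes were lower in 50 of 52 cases by small amounts, with a median of -0.40 and 1 gene, Rpl38, past 2-fold (-1.55). Oxidative phosphorylation subunits had a median of -0.12, with 2 of 73 past 2-fold, Cox7a1 (-1.15) and Uqcrq (-1.01). In cholesterol synthesis 0 of 15 genes were 2-fold apart and the median was 0.00. The metabolic lists thus went from no shift to shifts below 2-fold at the median. Over all genes compared, 4.66% were 2-fold higher and 6.51% were 2-fold lower.

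The remaining genes 4-fold higher in KIT cells were of several kinds. Kif15, a spindle kinesin, stood at 50.0 and 11.6 FPKM (2.02), and 5730590G19Rik (Ticrr), a regulator of origin firing, at 27.7 and 5.27 FPKM (2.20). Ccdc155 (Kash5), which ties meiotic telomeres to the cytoskeleton, stood at 17.99 and 3.69 FPKM (2.02). 1700014N06Rik (H2bfm), a histone H2B gene, stood at 13.8 and 2.16 FPKM (2.23). Slc27a2, a fatty acid transporter, stood at 2.22, the synaptic scaffold gene Shank2 at 2.18, the nuclease gene Ankle1 at 2.13 and 1600016N20Rik (Lmntd2) at 2.17. Mgat5b, a glycosyltransferase, Ppp4r4, a phosphatase subunit, Nudt17 and BC051142 stood between 2.02 and 2.07.

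The other 3 of the 29 were listed at 0 in P12 THY1, so no fold is given. Tex14, which builds the bridges between germ cells, stood at 78.4 FPKM in P12 KIT and was listed at 0 in P12 THY1 and P14 THY1. It stood at 50.2 FPKM in P7 THY1 and 79.9 FPKM in P7 ID4-GFP. Celf2, an RNA-binding protein, stood at 18.1 FPKM in P12 KIT and 14.3 FPKM in P7 THY1 and was listed at 0 in the other P7, P12 and P14 columns of KIT and THY1 cells. Rpph1, the RNA of RNase P, stood at 5.38 FPKM in P12 KIT. A listed 0 can be a failed estimate, and which of these are was not tested.

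The remaining genes 4-fold lower in KIT cells had levels from 0.166 to 11.3 FPKM in KIT and up to 63.8 FPKM in THY1. Gzmc, granzyme C, stood at 0.166 FPKM in KIT cells and 10.9 FPKM in THY1 (-3.35). Pf4, a platelet and macrophage chemokine, stood at 1.07 and 13.0 FPKM (-2.76), Cd36, a scavenger receptor, at 0.872 and 11.1 FPKM (-2.69), Ctss, a lysosomal protease, at -2.36 and Ccl3, a chemokine, at -2.48. F13a1, Lilrb4 and Plek, known from myeloid cells, stood at -2.26, -2.21 and -2.01. Rgs5, a pericyte gene, stood at 6.44 and 42.5 FPKM (-2.55). Wnt4, a secreted ligand, stood at 2.05 and 11.9 FPKM (-2.07), 8030411F24Rik (Cstdc1), a cystatin gene, at -2.30 and Ndufa4l2 at -2.01. Lars2, mitochondrial leucyl-tRNA synthetase, stood at 6.62 and 63.8 FPKM (-3.09) and was listed at 0 in P7 KIT, P14 KIT and P14 THY1.

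The same contrast in the P7 and P14 libraries mostly had the sign seen at P12. Of the 26 genes 4-fold higher at P12 and not listed at 0, 26 were above 0 at P7, with a median of 0.89, and 24 at P14, with a median of 1.47. By 2-fold or more 11 were higher at P7, beside 2.24% of all genes compared, and 19 at P14, beside 8.13%. Of the 21 genes 4-fold lower, 19 were below 0 at P7 and 18 at P14, with medians of -1.08 and -2.28. By 2-fold 12 were lower at P7, beside 2.09% of all genes, and 14 at P14, beside 10.4%. Lars2 is among these 12 through a P7 KIT value listed at 0, and both its P14 values are listed at 0. Gzmc is among the 14 with P14 KIT listed at 0. The wider set gave the same picture. Of 468 genes 2-fold higher at P12 and not listed at 0, 85.3% were above 0 at P7 and 82.1% at P14, beside 53.2% and 56.9% of all genes. Of 658 genes 2-fold lower, 82.8% were below 0 at P7 and 81.0% at P14, beside 46.8% and 43.0% of all genes. Over the 10106 genes, none of which is an independent replicate, the P12 difference had a Pearson r of 0.43 with that at P7 and 0.45 with that at P14 (Spearman 0.42 and 0.45). No pair of these contrasts shares a column.

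**Figure D4:**
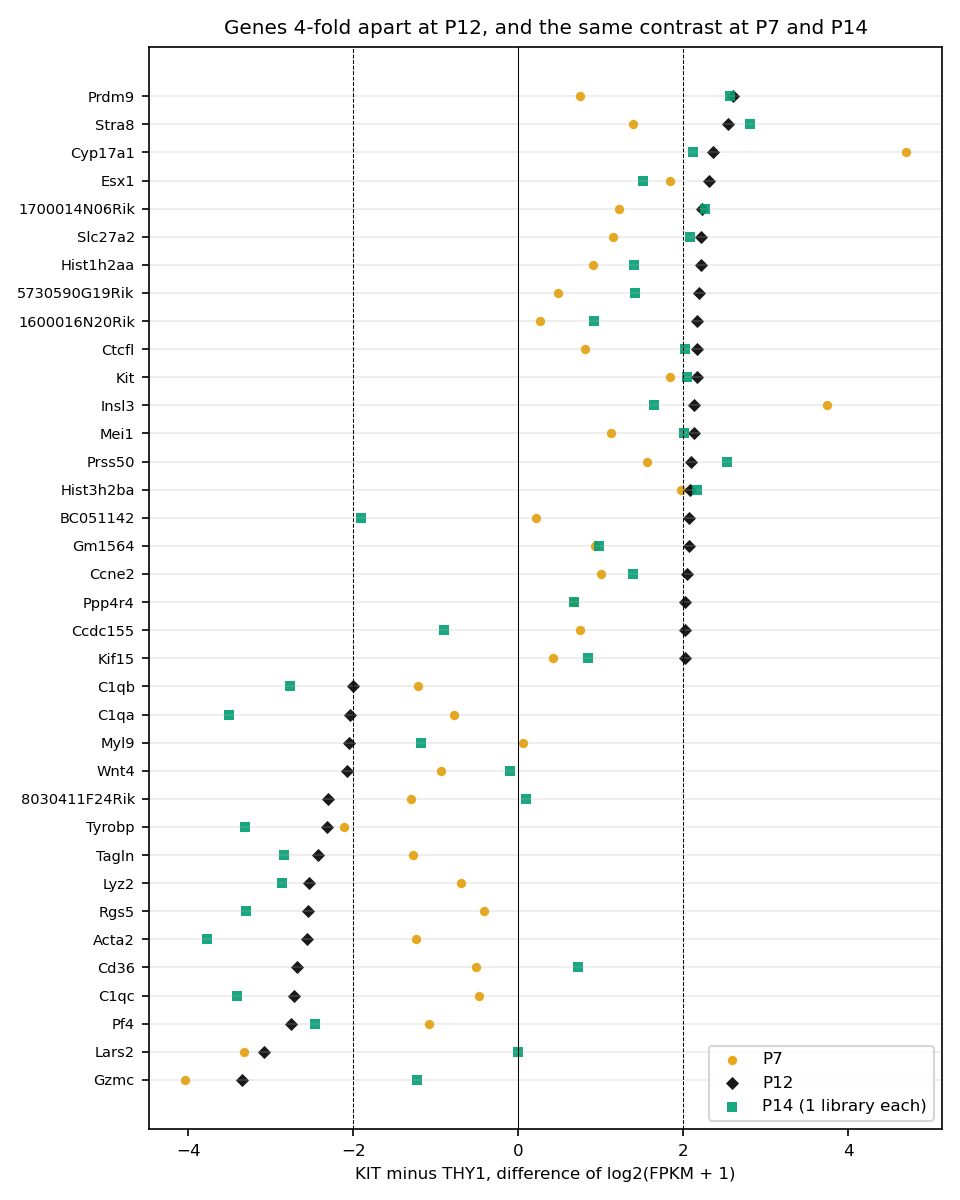
Difference of KIT minus THY1 (horizontal, log2(FPKM + 1)) at P7, P12 and P14 for the 36 genes 4-fold apart at P12 that reached 10 FPKM in the higher P12 column and are not listed at 0 in either, ordered by the P12 value. Dashed lines mark 4-fold; at P7 all 21 upper genes lie above 0, and at P14 BC051142 and Ccdc155 lie below it.

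Lists differed in how their P12 value compared with the other ages, as a description. The 41 meiotic genes had a median of 0.37 at P7 and 0.69 at P14, beside 1.17 at P12. Synaptonemal complex genes stood at 0.35, 1.23 and 0.37 at P7, P12 and P14, whereas break formation genes stood at 0.37, 1.30 and 1.45. Prdm9 stood at 3.11 FPKM in P7 KIT, 31.5 FPKM in P12 KIT and 32.3 FPKM in P14 KIT, beside 1.45, 4.33 and 4.63 FPKM in THY1. Sycp2 stood at 22.5, 224 and 89.2 FPKM in KIT cells and at 26.1, 76.1 and 98.2 FPKM in THY1, so its order between the groups at P12 was not that at P7 or P14. Spermatogonial self-renewal genes had medians of -1.23, -0.75 and -1.67, with the P12 value nearest 0.

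Sertoli markers stood at -0.69, -1.30 and -0.19 and their sum in THY1 cells was 1691, 4386 and 246 FPKM at the 3 ages. In KIT cells their sum was 1084, 1584 and 347 FPKM, so at P14 it was higher than in THY1. Leydig genes stood at 1.46, 0.69 and 1.33, and fibroblast genes at 0.10, -1.04 and -1.66. Kit itself differed by 1.84, 2.16 and 2.05. Immediate early genes stood at -0.56, -0.88 and -0.86. None of these differences between ages was tested, as each age has 1 value per group.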

How the data were processed

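RNA was measured in 4 libraries at P12, with 4 more at P7 and 2 at P14. Directional libraries were made from total RNA after removal of ribosomal RNA, per the labels' protocols. The submitters' processing notes name CASAVA, TopHat2 2.0.9, Cufflinks 2.1.1 and mm9; the annotation and how libraries were combined are not given in the sources used here. The authors deposited FPKM, 1 value per group, for 20889 gene symbols. The 75th percentile was 18.2 in both P12 columns. Absolute depth is unknown and no interval could be given. Steps between values under 0.05 FPKM, most often in the ratio 1.35 (67 of 471 genes), would put the depth of P12 KIT at 0.741 of that of P12 THY1.

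Differences of log2(FPKM + 1) were computed from the deposited FPKM with Python 3.11.15, numpy 2.4.6 and pandas 2.3.3, and plots with matplotlib 3.10.9. Genes that reached 5 FPKM in either P12 column were counted at 4-fold and 2-fold. The rule names Kit, Thy1, every gene 4-fold apart, up to 6 members of each of 40 lists by size of difference, and 10 defining markers. Up to 5 promoters were to be printed and 4 are; that of Mei1 and those of genes 4-fold lower were left out. Some genes under the rule are not reported here. The comparison, lists and rule were chosen with earlier results of these data known. Of the symbols, 20681 matched RefSeq names and 16280 had a promoter, as did 39 of the 50 genes 4-fold apart. The motif shares given keep genes listed at 0, such as Tex14, whose promoter held TTTCCCGC. The calculation was tested on simulated data. Alternatives were other pseudocounts, filters, scalings and centring.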

Additional observations from a re-analysis of the deposited data

Results flagged for a closer look

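In 3 genes that were 4-fold higher in P12 KIT cells, the same contrast had the opposite sign and was 2-fold or more at another age; the difference between ages was not tested, since each group has 1 value. Celf2 differed by 4.26 at P12 and -3.94 at P7, and Rpph1 by 2.67 at P12 and -3.97 at P7. In both genes each of these values rests on a column listed at 0. BC051142 differed by 2.07 at P12 and -1.91 at P14, at 19.04 FPKM in P12 KIT and 55.8 FPKM in P14 THY1.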

How the results depend on the processing

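No paired analysis was possible because the table holds 1 value per group. For the same reason no library could be left out. Counts of genes 4-fold higher, lower and apart (29, 21 and 50 as reported) became 52, 40 and 92 with a pseudocount of 0.1, and 4, 3 and 7 with a pseudocount of 5. They became 11, 6 and 17 when both columns had to reach FPKM of 5. Counts 2-fold higher, lower and apart (471, 658 and 1129) became 211, 282 and 493 with a pseudocount of 5. Centred on the pan-germ cell list, 8 genes were 4-fold higher and 42 lower, and 218 were 2-fold higher and 1241 lower. Among genes with FPKM of 5 or more in P7 ID4-GFP, an alternative chosen after seeing the data, 12, 2 and 14 genes were 4-fold higher, lower and apart, and 194 and 541 were 2-fold lower and apart. Scaling to the 75th percentile, quantile normalization, no filter, and leaving out genes listed at 0 (the last also chosen after seeing the data) kept all 6 counts within 1.5 times.

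Of the 35 list medians, that of macrophage genes became -1.22 with a pseudocount of 5, and those of late meiotic genes and collagen chains became 0.00 and -0.26 without a filter. The fibroblast median became -0.42 among genes measured in ID4-GFP cells. Signs changed in 4 lists with centring, 4 without a filter, 3 among ID4-GFP genes, 2 with both columns at 5 and 1 with 75th percentile scaling. These were lists with medians near 0, other than the pan-germ cell list when centred on itself and late meiotic genes without a filter. Depth limits the genes under the filter, where 1 fragment moves a value most.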
